A study of Mus musculus with 2 samples.

Results

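Fos, Jun, Junb, Egr1, Ier2, Dusp1, Klf2, Nfkbia, Ccn1 and Ddit4 are immediate early and stress response genes, chosen by symbol from the 22620 genes of the deposited tables. All 10 were found. They were followed in nuclei isolated from the brown fat of 4-week mice, in 1 library of the genotype labelled KO and 1 of the genotype labelled Flox. Per the series' design text, KO stands for Nfe2l1(f)-KO, a loss of the transcription factor gene Nfe2l1 (also called Nrf1), and Flox is its control. The driver that removes the gene, the sex and the number of mice per library are not stated in the labels, so the KO library cannot be read as a loss in any 1 cell type. With 1 library per genotype there is no test of the genotype, and each interval below covers counting error only.

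Immediate early genes are transcribed within minutes of a stimulus, because their factors are already present in the cell and need no new protein. FOS, JUN and JUNB pair into the AP-1 transcription factor, and EGR1 is a zinc finger activator that growth factor and mechanical signals switch on. The same signals also induce their own brakes, such as DUSP1, which removes phosphate from stress kinases, and IκBα, the product of Nfkbia, which holds NF-κB in the cytoplasm. In brown fat such genes respond to cold and to adrenergic signals, and they are also known to rise while tissue is handled.

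The promoters of 4 members are shown because the results turn on these genes: Ccn1 and Ddit4 were at least 1.5-fold higher in the library labelled KO in 3 cell classes each and Nfkbia in 4, and Dusp1 went different ways between classes. Each is the 250 bases before the RefSeq start of the gene on GRCm38.p6, 5′ to 3′ on the gene's strand, with matches to the motifs searched in capitals. The table of promoters held 8 of the 10 members. It had no window for Ier2, or for Egr1, which was also at least 1.5-fold higher in 3 classes and so could not be shown.
Ccn1, chr3:145649986-145650235, minus strand: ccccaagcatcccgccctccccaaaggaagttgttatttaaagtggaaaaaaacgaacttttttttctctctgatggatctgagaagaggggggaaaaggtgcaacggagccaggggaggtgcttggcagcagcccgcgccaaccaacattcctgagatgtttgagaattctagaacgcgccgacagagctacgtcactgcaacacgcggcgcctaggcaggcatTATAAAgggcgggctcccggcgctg
Ddit4, chr10:59951771-59952020, minus strand: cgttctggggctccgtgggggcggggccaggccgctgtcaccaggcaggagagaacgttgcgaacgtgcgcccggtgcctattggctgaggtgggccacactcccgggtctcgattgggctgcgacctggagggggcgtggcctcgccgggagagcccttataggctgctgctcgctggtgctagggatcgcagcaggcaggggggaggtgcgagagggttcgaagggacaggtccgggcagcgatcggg
Nfkbia, chr12:55492648-55492897, minus strand: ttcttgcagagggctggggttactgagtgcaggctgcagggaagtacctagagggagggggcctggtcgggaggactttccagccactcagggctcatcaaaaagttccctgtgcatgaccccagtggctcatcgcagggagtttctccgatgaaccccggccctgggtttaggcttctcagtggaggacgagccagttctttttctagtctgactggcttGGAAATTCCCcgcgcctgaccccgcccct
Dusp1, chr17:26508473-26508722, minus strand: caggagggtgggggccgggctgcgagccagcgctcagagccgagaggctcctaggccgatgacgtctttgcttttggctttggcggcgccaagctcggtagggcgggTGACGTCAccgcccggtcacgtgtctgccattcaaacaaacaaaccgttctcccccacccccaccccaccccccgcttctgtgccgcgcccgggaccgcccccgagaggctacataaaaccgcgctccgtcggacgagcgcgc

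The motifs searched on both strands were the cAMP response element TGACGTCA, the AP-1 site as TGACTCA or TGAGTCA, the TATA box TATAAA, the antioxidant response element as the AP-1 letters TGACTCA followed by GC, the serum response element and the NF-κB site. In these windows Nfkbia had an NF-κB site at -29 to -20 from the start, a motif present in 3.76% of 27025 promoters of the same length. Dusp1 had a cAMP response element at -143 to -136, present in 1.56% of them, and Ccn1 a TATA box at -25 to -20, present in 12.9%. Fos held a TATA box at -33 to -28 and an NF-κB site at -214 to -205. The windows of Jun, Junb, Klf2 and Ddit4 held none of the motifs, and no window held an antioxidant response element (0.344% of all promoters), an AP-1 site (4.47%) or a serum response element (1.39%). A match is a description of letters, not of a bound site.

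The files held 13030 barcodes and 43080725 UMIs (unique molecular identifiers, 1 per captured RNA molecule) in the library labelled KO, against 16145 barcodes and 46528077 UMIs in the library labelled Flox, and 65 barcode sequences occurred in both. After filters and doublet removal 11543 nuclei labelled KO and 13961 labelled Flox were kept, with a median of 2644 and 2253 UMIs. They held 8775 and 6700 UMIs of the 10 members. Nuclei were clustered without the members and without related genes, and 6 classes had at least 100 nuclei in each library: adipocyte-like (8211 labelled KO, 8834 labelled Flox), fibroblast/progenitor-like (1440 and 2082), endothelial-like (917 and 1429), macrophage/monocyte-like (412 and 593), pericyte/smooth muscle-like (212 and 344) and T/NK-like (123 and 106). Mitochondrial genes took a larger share of UMIs in the library labelled KO in each of these classes, for example 1.28% against 0.464% in adipocyte-like nuclei and 1.58% against 1.31% in endothelial-like nuclei, and the part of RNA quality in the differences below was not tested.

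The targeted gene went against the label. Nfe2l1 had 313 CPM (UMIs of the gene over all UMIs of the class, scaled to counts per 1e6) in adipocyte-like nuclei labelled KO, against 131 CPM in those labelled Flox, a ratio of 2.39 (95% interval 2.3 to 2.49). It was at 118 and 107 CPM in endothelial-like nuclei (1.11, 0.921 to 1.33) and at 68.8 and 64.7 CPM in fibroblast/progenitor-like nuclei (1.06, 0.877 to 1.29), and at 180 and 63.3 CPM in T/NK-like nuclei (2.84, 1.56 to 5.48), from 46 and 15 UMIs. A 3′ tag outside the deleted part checks nothing, and the labels do not say which part was deleted, so the genotype of the library labelled KO was not checked by these counts. Each direction below is that of the library labelled KO over the library labelled Flox.

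Summed, the members were highest per UMI in endothelial-like nuclei. This did not hold for each of them: Fos stood highest in macrophage/monocyte-like and Junb in T/NK-like nuclei. The 10 members together made 1119 CPM in endothelial-like nuclei labelled KO and 650 CPM in those labelled Flox, against 164 and 122 CPM in adipocyte-like nuclei. The other classes lay between them, with 477 and 275 CPM in macrophage/monocyte-like, 329 and 228 in T/NK-like, 331 and 221 in fibroblast/progenitor-like and 309 and 167 in pericyte/smooth muscle-like nuclei. The summed level was higher in the library labelled KO in all 6 classes.

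A member was counted as higher or lower at 1.5-fold or more, if the 2 libraries together gave it 50 UMIs or more in that class. In endothelial-like nuclei 7 of 9 such members were higher and 1 lower in the library labelled KO, where 2.88% of all 8633 genes were that much higher and 10.4% that much lower. In macrophage/monocyte-like nuclei 4 of 6 were higher and 0 lower, against 3.97% and 6.26% of all genes, and in fibroblast/progenitor-like nuclei 4 of 9 were higher and 0 lower, against 2.92% and 3.78%. In adipocyte-like nuclei 3 of 10 were higher and 1 lower, against 2.06% and 8.14%. The 1 member with enough UMIs in pericyte/smooth muscle-like nuclei was higher, against 5.08% of all genes, and no member reached 50 UMIs in T/NK-like nuclei, where 8.46% of all genes were higher and 7.82% lower. The median log2 ratio of the members was 0.70 in endothelial-like, 0.90 in macrophage/monocyte-like, 0.56 in fibroblast/progenitor-like and 0.42 in adipocyte-like nuclei, while that of all genes was -0.05, -0.02, -0.03 and -0.06. Jun and Dusp1 in endothelial-like nuclei, at ratios of 1.5 and 1.51, lay just inside the 1.5-fold line. Klf2 in fibroblast/progenitor-like nuclei, at 1.47, lay just outside it.

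**Figure D1:**
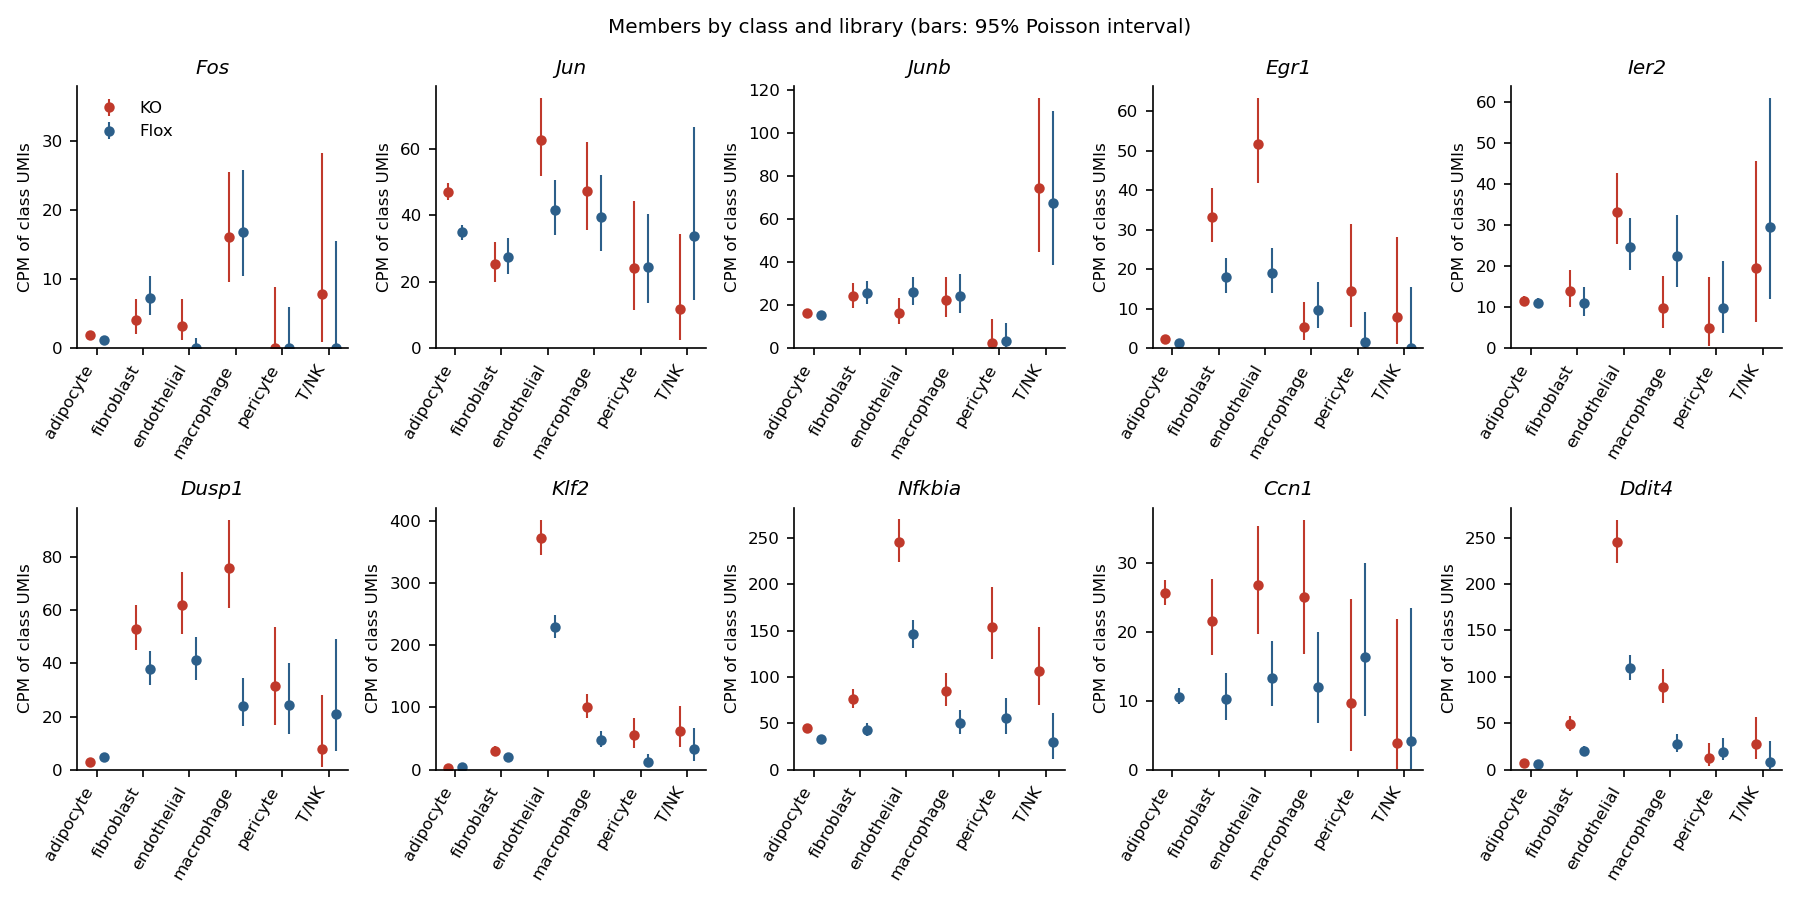
Level of each member in CPM of class UMIs (y axis, from 0, with its own scale per gene) in the 6 classes (x axis), for the library labelled KO (red) and the library labelled Flox (blue), with exact 95% Poisson intervals as bars. Klf2, Nfkbia and Ddit4 stand highest in endothelial-like nuclei, at 372, 246 and 245 CPM in the library labelled KO and 229, 146 and 110 CPM in the library labelled Flox.

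**Figure D2:**
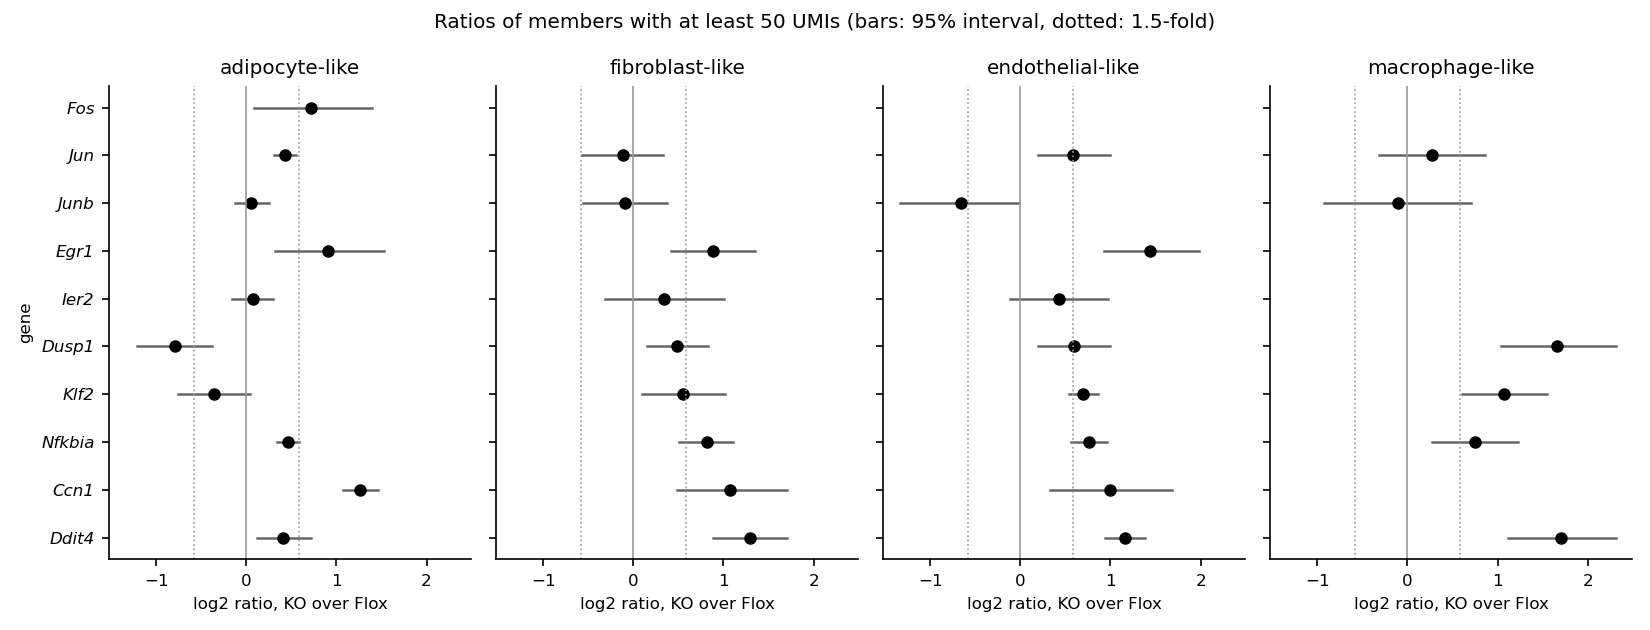
Log2 ratio of the library labelled KO over the library labelled Flox (x axis) of each member with at least 50 UMIs (y axis), in 4 classes, with 95% counting intervals as bars, the solid line at no difference and dotted lines at 1.5-fold either way. Dusp1 lies left of the lower dotted line in adipocyte-like nuclei (ratio 0.577) and far right of the upper one in macrophage/monocyte-like nuclei (ratio 3.16).

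Among the AP-1 genes Jun carried most of the UMIs, Fos was nearly silent, and Junb did not follow Jun. Jun is a single-exon gene on chromosome 4 (95049034 to 95052222, minus strand, GRCm38). In adipocyte-like nuclei it had 1373 UMIs in 1106 nuclei labelled KO, against 971 UMIs in 816 nuclei labelled Flox, which is 47.0 and 34.8 CPM. The ratio was 1.35 (1.24 to 1.47), below the 1.5-fold line though its interval lay above 1. In endothelial-like nuclei Jun stood at 62.6 CPM in nuclei labelled KO and 41.6 CPM in nuclei labelled Flox (1.5, 1.14 to 1.98). In fibroblast/progenitor-like nuclei it stood at 25.3 and 27.4 CPM (0.924, 0.676 to 1.26) and in macrophage/monocyte-like nuclei at 47.4 and 39.3 CPM (1.21, 0.802 to 1.82). The intervals of these last classes held 1.

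Fos (chromosome 12, 85473890 to 85477273) had 98 UMIs in 82 kept nuclei labelled KO and 86 UMIs in 64 labelled Flox. Its highest level was in macrophage/monocyte-like nuclei, at 16.1 CPM in those labelled KO and 16.9 CPM in those labelled Flox, from 18 and 21 UMIs in 15 and 12 nuclei. In adipocyte-like nuclei it had 57 UMIs in 50 nuclei labelled KO and 33 UMIs in 33 nuclei labelled Flox, at 1.95 and 1.18 CPM (1.65, 1.06 to 2.62). Fos was rare even where it was counted as higher, in 0.609% and 0.374% of adipocyte-like nuclei. Endothelial-like nuclei labelled KO had 6 UMIs in 4 nuclei, and those labelled Flox had 0, which allows up to 1.49 CPM by the exact Poisson bound. In fibroblast/progenitor-like nuclei Fos had 12 UMIs in 8 nuclei labelled KO and 27 UMIs in 14 nuclei labelled Flox, and 55.6% of the Flox UMIs lay in nuclei with 3 or more.

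Junb (chromosome 8, 84974484 to 84978718, minus strand) encodes an AP-1 subunit that can act in place of JUN. It stood at 16.2 CPM in adipocyte-like nuclei labelled KO and 15.5 CPM in those labelled Flox (1.04, 0.912 to 1.19), with 472 and 433 UMIs. It was at 24.0 and 25.5 CPM in fibroblast/progenitor-like nuclei (0.939, 0.679 to 1.29) and at 22.4 and 24.1 CPM in macrophage/monocyte-like nuclei (0.929, 0.524 to 1.63). Junb was lower in endothelial-like nuclei labelled KO, at 16.3 CPM against 25.9 CPM in those labelled Flox (0.631, 0.395 to 0.989), from 30 and 64 UMIs in 28 and 55 nuclei. That count was lost under 5 of the alternatives given in the closing section. The gene overlaps Prdx2 on the opposite strand, and Prdx2 was also lower there, at 26.7 and 50.1 CPM (0.532, 0.374 to 0.747). The labels do not say whether the counting used strand, and whether any reads of Prdx2 were counted as Junb was not tested. In T/NK-like nuclei Junb had 19 UMIs labelled KO and 16 labelled Flox, at 74.3 and 67.5 CPM, its highest level among the 6 classes.

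Egr1, the growth factor responsive activator on chromosome 18 (34859823 to 34864984), was higher in the library labelled KO in the 3 classes in which it had at least 50 UMIs. In endothelial-like nuclei it had 95 UMIs in 67 nuclei labelled KO, against 47 UMIs in 38 nuclei labelled Flox, at 51.7 and 19.0 CPM (2.72, 1.9 to 3.95). In fibroblast/progenitor-like nuclei it stood at 33.2 CPM in nuclei labelled KO and 18 CPM in nuclei labelled Flox (1.84, 1.34 to 2.56). In adipocyte-like nuclei it was low, with 71 UMIs in 45 nuclei labelled KO and 36 UMIs in 26 nuclei labelled Flox, at 2.43 and 1.29 CPM (1.88, 1.24 to 2.9). The UMIs of Egr1 were bunched: in adipocyte-like nuclei labelled KO 35.2% of them lay in nuclei with 3 or more, and the highest single nucleus held 7 UMIs in the library labelled KO and 8 in the library labelled Flox. Macrophage/monocyte-like nuclei had 6 and 12 Egr1 UMIs in 2 and 5 nuclei, too few to place.

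Ier2 (chromosome 8, 84661331 to 84662852, minus strand), a single-exon gene for a nuclear protein induced by growth factors, had ratios whose intervals held 1 in the 3 classes in which it had at least 50 UMIs. It stood at 11.5 CPM in adipocyte-like nuclei labelled KO and 11 CPM in those labelled Flox (1.05, 0.896 to 1.23), with 337 and 307 UMIs. In fibroblast/progenitor-like nuclei it was at 14.0 and 11 CPM (1.27, 0.806 to 2.01) and in endothelial-like nuclei at 33.2 and 24.7 CPM (1.35, 0.929 to 1.95). In macrophage/monocyte-like nuclei Ier2 had 11 UMIs in 11 nuclei labelled KO and 28 UMIs in 26 nuclei labelled Flox, at 9.85 and 22.5 CPM (0.438, 0.197 to 0.907), under the 50 UMIs needed for a count.

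Dusp1, the phosphatase that switches off p38 and JNK kinases, was lower in adipocyte-like nuclei labelled KO and higher in 2 other classes. In adipocyte-like nuclei it had 81 UMIs in 80 nuclei labelled KO, against 134 UMIs in 124 nuclei labelled Flox, at 2.77 and 4.8 CPM (0.577, 0.433 to 0.767). Per 100 UMIs of macrophage markers this low level was 0.532 (0.423 to 0.662) labelled KO and 0.868 (0.727 to 1.03) labelled Flox, against 0.466 (0.372 to 0.576) and 0.162 (0.109 to 0.232) in macrophage/monocyte-like nuclei. Those intervals overlap in the library labelled KO, where adipocyte-like nuclei held 15215 macrophage marker UMIs against 6595 of endothelial markers. A larger divisor lowers this measure, and whether those macrophage marker UMIs came from macrophages was not tested. Per 100 UMIs of endothelial markers it was 1.23 and 2.15 in adipocyte-like nuclei, against 0.348 and 0.245 in endothelial-like nuclei, and per 100 of fibroblast markers 1.21 and 2.2, against 0.292 and 0.221 in fibroblast/progenitor-like nuclei. The part of free RNA in the adipocyte level of Dusp1 was not tested. In macrophage/monocyte-like nuclei it had 85 UMIs in 62 nuclei labelled KO and 30 UMIs in 25 nuclei labelled Flox, at 76.1 and 24.1 CPM (3.16, 2.06 to 4.96). In endothelial-like nuclei it stood at 62.1 CPM in nuclei labelled KO and 41.2 CPM in nuclei labelled Flox (1.51, 1.14 to 1.99). In fibroblast/progenitor-like nuclei it stood at 53.0 and 37.9 CPM (1.4, 1.11 to 1.77), below the 1.5-fold line. In its annotated span (chromosome 17, 26505590 to 26562128, minus strand) Dusp1 overlaps the opposite-strand gene Ergic1. Ergic1 was also lower in adipocyte-like nuclei, at 80.7 and 124 CPM (0.648, 0.615 to 0.683). It was near even in endothelial-like (1.01) and macrophage/monocyte-like nuclei (1.09). In fibroblast/progenitor-like nuclei its ratio was below 1 (0.833, 0.711 to 0.974), while that of Dusp1 was 1.4. Whether any reads of Ergic1 were counted as Dusp1 was not tested.

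Nfkbia, which encodes the NF-κB inhibitor IκBα and is itself an NF-κB target, had a ratio above 1, with an interval above 1, in each of the 5 classes in which it had at least 50 UMIs. It lies on chromosome 12 (55489410 to 55492647, minus strand). In adipocyte-like nuclei it had 1320 UMIs in 1135 nuclei labelled KO and 912 UMIs in 824 nuclei labelled Flox, at 45.2 and 32.7 CPM (1.38, 1.27 to 1.51), short of the 1.5-fold line. In endothelial-like nuclei it had 452 UMIs in 305 nuclei labelled KO and 360 UMIs in 284 nuclei labelled Flox, at 246 and 146 CPM (1.69, 1.47 to 1.95). Of these 5 classes, pericyte/smooth muscle-like nuclei had the widest ratio, at 154 CPM labelled KO and 55.3 CPM labelled Flox (2.79, 1.82 to 4.37), from 64 and 34 UMIs in 48 and 30 nuclei. T/NK-like nuclei had 27 and 7 UMIs, too few for a count, at 106 and 29.5 CPM (3.58, 1.52 to 9.73). Fibroblast/progenitor-like nuclei stood at 76.0 and 43.2 CPM (1.76, 1.43 to 2.17) and macrophage/monocyte-like nuclei at 85.0 and 50.6 CPM (1.68, 1.21 to 2.35). The NF-κB factors and targets listed beside it were mostly within 1.5-fold: of 9, 11, 7 and 8 such genes measured in adipocyte-like, fibroblast/progenitor-like, endothelial-like and macrophage/monocyte-like nuclei, 0, 1, 0 and 0 were at least 1.5-fold higher and 0, 0, 0 and 1 lower. The NF-κB subunit gene Rela was the 1 higher (53.7 against 33.3 CPM in fibroblast/progenitor-like nuclei) and the adhesion molecule gene Icam1 the 1 lower (33.1 against 54.6 CPM in macrophage/monocyte-like nuclei). Among all genes 2.06%, 2.92%, 2.88% and 3.97% were that much higher in these classes, in the order of the counts. The shares lower were 8.14%, 3.78%, 10.4% and 6.26%. With lists this short, so few counted genes do not set the list apart from all genes.

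Klf2, a transcription factor that flow induces in endothelium and that keeps T cells and macrophages quiescent, had its highest level among the 6 compared classes in endothelial-like nuclei. It lies on chromosome 8 (72319033 to 72321656). There it had 683 UMIs in 362 nuclei labelled KO, against 567 UMIs in 355 nuclei labelled Flox, at 372 and 229 CPM (1.62, 1.45 to 1.82). Klf2 was found in 39.5% of the 917 endothelial-like nuclei labelled KO and 24.8% of the 1429 labelled Flox. In the 686 and 907 of them with at least 1000 UMIs, thinned to 1000 each, the shares were 28.4% and 19.0%. Macrophage/monocyte-like nuclei had 113 UMIs in 66 nuclei labelled KO and 60 UMIs in 49 nuclei labelled Flox, at 101 and 48.2 CPM (2.1, 1.52 to 2.92). Fibroblast/progenitor-like nuclei stood at 30.5 and 20.7 CPM (1.47, 1.07 to 2.02). In adipocyte-like nuclei Klf2 was at 3.36 CPM in those labelled KO and 4.3 CPM in those labelled Flox (0.78, 0.591 to 1.03). Per 100 UMIs of endothelial markers it had 1.49 (1.2 to 1.81) and 1.93 (1.6 to 2.31) UMIs in adipocyte-like nuclei, against 2.08 (1.93 to 2.25) and 1.36 (1.25 to 1.48) in endothelial-like nuclei. That is less than in endothelial-like nuclei in the library labelled KO and more in the library labelled Flox, and the part of free endothelial RNA in the adipocyte level of Klf2 was not tested. Nfkbia, by the same measure, had 20 and 14.7 UMIs in adipocyte-like nuclei against 1.38 and 0.864 in endothelial-like nuclei, and Ccn1 had 11.3 and 4.77 against 0.15 and 0.0792. Of 8 other genes of the endothelial KLF2 pathway measured in endothelial-like nuclei, 0 were 1.5-fold higher and 0 lower, with a median log2 ratio of -0.10. Among all genes 2.88% were that much higher there and 10.4% lower, so these counts do not set the list apart. Of 8 measured in adipocyte-like nuclei 0 were higher and 2 lower, Nos3 (2.36 and 4.73 CPM) and Mef2c (2.74 and 5.09 CPM). Thbd was the 1 of 8 higher in fibroblast/progenitor-like nuclei and Klf4 the 1 of 6 in macrophage/monocyte-like nuclei.

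Ccn1, a secreted matrix protein gene that YAP and TAZ control (also called Cyr61), had the widest ratio of the 10 members in adipocyte-like nuclei. It lies on chromosome 3 (145646976 to 145649981, minus strand). It had 747 UMIs in 599 adipocyte-like nuclei labelled KO, against 297 UMIs in 278 nuclei labelled Flox, at 25.6 and 10.6 CPM (2.4, 2.1 to 2.76). In fibroblast/progenitor-like nuclei it stood at 21.6 CPM in nuclei labelled KO and 10.2 CPM in nuclei labelled Flox (2.11, 1.39 to 3.25), with 63 and 38 UMIs. In endothelial-like nuclei it stood at 26.7 and 13.3 CPM (2.0, 1.26 to 3.21), and in macrophage/monocyte-like nuclei it had 28 and 15 UMIs. Other genes of the YAP and TAZ pathway went both ways: in adipocyte-like nuclei 0 of 9 were higher and 2 lower, with the DNA-binding partner Tead1 at 383 CPM in nuclei labelled KO and 605 CPM in nuclei labelled Flox. In endothelial-like nuclei 1 of 8 was higher, Amotl2 (101 and 66.7 CPM), and 1 lower, Tead1 (210 and 328 CPM). In macrophage/monocyte-like nuclei 1 of 5 was higher, Lats2 (30.4 and 13.7 CPM), and 2 lower, Tead1 (37.6 and 80.3 CPM) and Wwtr1 (17.9 and 30.5 CPM), and 0 of 9 in fibroblast/progenitor-like nuclei were either. Among all genes 2.06%, 2.88%, 3.97% and 2.92% were that much higher in these classes, in the same order. The shares lower were 8.14%, 10.4%, 6.26% and 3.78%.

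Ddit4, which encodes REDD1, a brake on mTORC1 that low oxygen, energy stress and glucocorticoids induce, was higher in the library labelled KO in endothelial-like, macrophage/monocyte-like and fibroblast/progenitor-like nuclei. It lies on chromosome 10 (59949669 to 59951834, minus strand). Endothelial-like nuclei had 450 UMIs in 297 nuclei labelled KO and 271 UMIs in 214 nuclei labelled Flox, at 245 and 110 CPM (2.24, 1.92 to 2.61). Macrophage/monocyte-like nuclei had 99 UMIs in 66 nuclei labelled KO and 34 UMIs in 30 nuclei labelled Flox, at 88.6 and 27.3 CPM (3.25, 2.18 to 4.94). Fibroblast/progenitor-like nuclei stood at 49.3 and 20.1 CPM (2.45, 1.84 to 3.28), from 144 and 75 UMIs. In adipocyte-like nuclei the level was 7.6 CPM in nuclei labelled KO and 5.7 CPM in nuclei labelled Flox (1.33, 1.08 to 1.65), with UMIs of it in 2.41% and 1.72% of all nuclei. In the 7709 and 8736 nuclei with at least 1000 UMIs, thinned to that number, the shares were 0.623% and 0.675%. Other mTOR brakes and integrated stress genes were within 1.5-fold or lower: 0 of 10, 0 of 10, 0 of 9 and 0 of 4 were 1.5-fold higher in adipocyte-like, fibroblast/progenitor-like, endothelial-like and macrophage/monocyte-like nuclei, and 2 in endothelial-like nuclei were lower, Sesn3 (7.62 and 15.4 CPM) and Vldlr (20.2 and 31.1 CPM). Among all genes 2.06%, 2.92%, 2.88% and 3.97% were that much higher in these classes, and 10.4% lower in endothelial-like nuclei. A count of 0 higher in lists this short does not set them apart from all genes.

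Adipocyte-like nuclei fell into 4 clusters, which differed in the level of several members. Ccn1 was at 26.0, 29.7 and 23.5 CPM in clusters 0, 1 and 2 labelled KO, against 10.2, 13.8 and 10.1 CPM in those labelled Flox, but at 3.13 and 2.6 CPM, from 3 UMIs each, in cluster 6, which Slc7a10 and Trhde lead. Jun was likewise nearly absent from cluster 6, with 3 UMIs labelled KO and 8 labelled Flox, and its ratio was 1.65 in cluster 0 against 1.16 and 1.23 in clusters 1 and 2. Nfkbia ran the other way, at 111 CPM labelled KO and 64.2 CPM labelled Flox in cluster 6, above its levels in the other 3 clusters (39.2 to 50.6 CPM labelled KO and 29.2 to 33.5 CPM labelled Flox). Dusp1 was at 14.6 and 18.2 CPM in cluster 6, and at 1.95 to 2.94 CPM labelled KO and 4.11 to 4.26 CPM labelled Flox elsewhere. Its ratio was 0.458 (0.283 to 0.73) in cluster 0, while the intervals held 1 in clusters 1 (0.715, 0.372 to 1.35), 2 (0.677, 0.358 to 1.23) and 6 (0.801, 0.377 to 1.65). Klf2 was lower in cluster 2, the one led by Gbp genes, at 3.05 and 6.32 CPM (0.482, 0.267 to 0.834), and its intervals held 1 in clusters 0 (1.11, 0.713 to 1.74) and 1 (1.07, 0.579 to 1.99). Cluster 2 held 1331 nuclei labelled KO and 2648 labelled Flox, and without it the ratio of Jun had a log2 value of 0.58 against 0.43 with it.

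**Figure D3:**
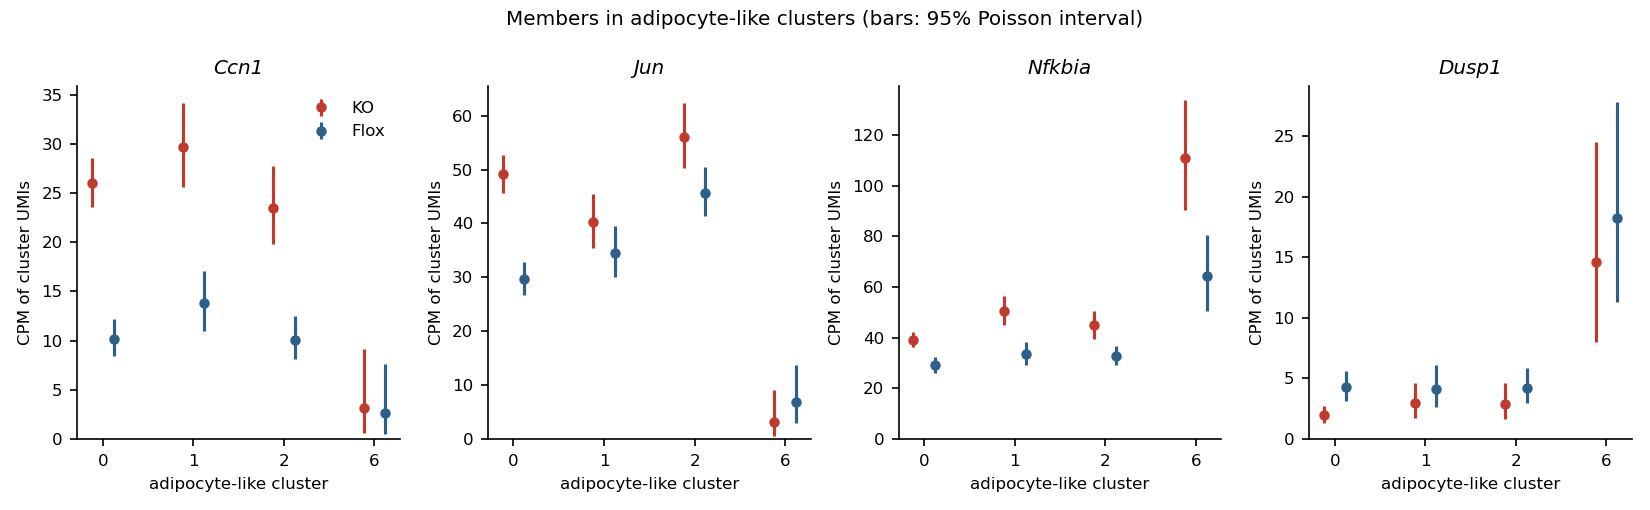
Levels of 4 members in CPM of cluster UMIs (y axis, from 0) in the 4 adipocyte-like clusters (x axis), for the library labelled KO (red) and the library labelled Flox (blue), with exact 95% Poisson intervals as bars. Cluster 6 stands low for Ccn1 and Jun, with 3 UMIs of each labelled KO, and high for Nfkbia (111 and 64.2 CPM) and Dusp1 (14.6 and 18.2 CPM).

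The members were also counted together in single nuclei, each thinned to 1000 UMIs, and nuclei with fewer were left out. This removed 231 endothelial-like nuclei labelled KO and 522 labelled Flox, 75 and 147 macrophage/monocyte-like, 280 and 555 fibroblast/progenitor-like, and 502 and 98 adipocyte-like nuclei. Of the endothelial-like nuclei that remained, 160 of 686 labelled KO (23.3%, exact binomial 95% interval 20.2 to 26.7) held 2 or more members, against 101 of 907 labelled Flox (11.1%, 9.16 to 13.4). With 3 or more there were 48 (7%, 5.2 to 9.17) and 21 nuclei (2.32%, 1.44 to 3.52). Macrophage/monocyte-like nuclei with 2 or more made up 7.42% (4.86 to 10.8) labelled KO and 2.69% (1.4 to 4.65) labelled Flox. Adipocyte-like nuclei made up 1.12% (0.893 to 1.38) and 0.664% (0.505 to 0.857), and fibroblast/progenitor-like nuclei 3.71% (2.7 to 4.96) and 2.55% (1.82 to 3.48), where the intervals overlap. Egr1 was found in 8.21% (4.76 to 13) of endothelial-like nuclei with Klf2 and 3.26% of those without it labelled KO, but in 1.16% (0.141 to 4.14) and 2.04% labelled Flox, from 16 and 2 nuclei that held both. Ddit4 was found in 25.1% (19.2 to 31.8) of nuclei with Klf2 and 19.1% of those without it labelled KO, and in 16.3% (11.1 to 22.7) and 9.8% labelled Flox. Nuclei of 1 library share its handling, so these shares are descriptions. Single members also had larger thinned shares in endothelial-like nuclei labelled KO than in those labelled Flox, apart from Junb (1.31% and 2.21%). Klf2 was in 28.4% and 19%, Ddit4 in 20.8% and 11% and Nfkbia in 20.3% and 14.6%. Whether members met in a nucleus more often than their single shares would give was not tested. Before thinning, endothelial-like nuclei with 2 or more members had a median of 2306 and 2237 UMIs, against 1071 and 937 UMIs in nuclei with none.

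**Figure D4:**
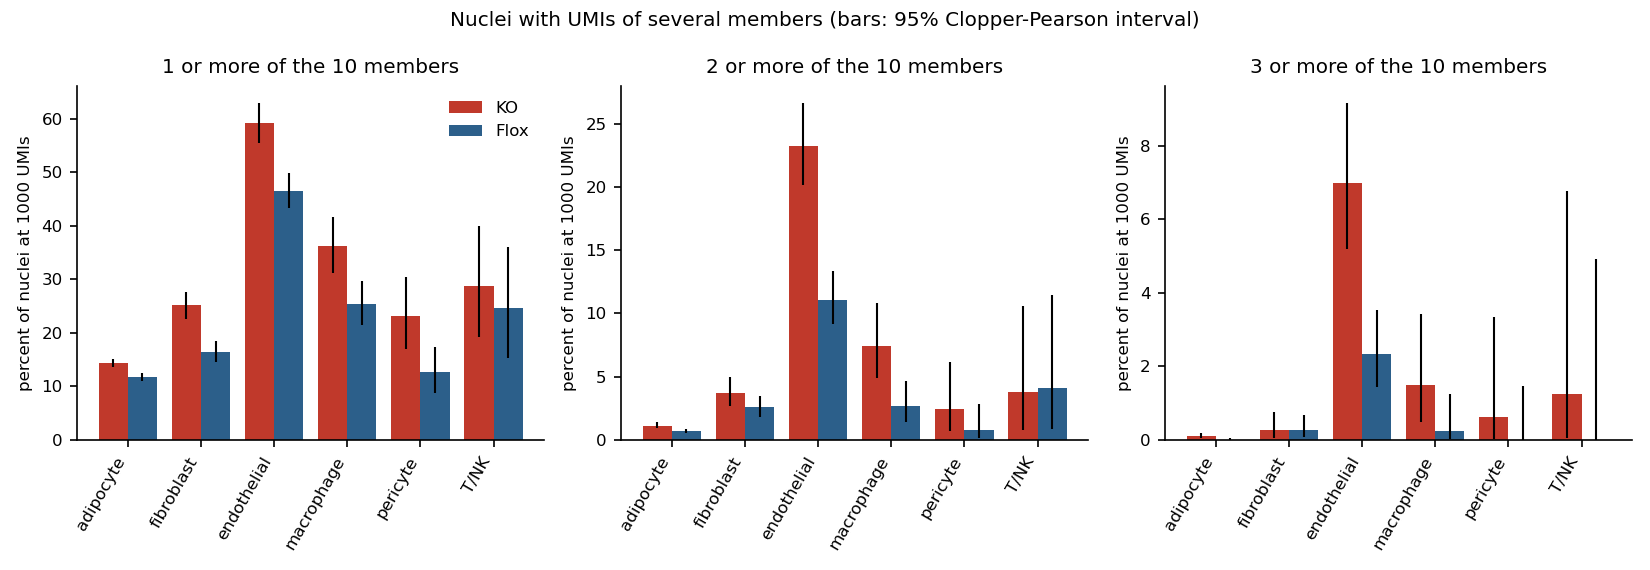
Percent of nuclei (y axis, from 0) that held UMIs of at least 1, 2 or 3 of the 10 members after thinning to 1000 UMIs, by class (x axis), for the library labelled KO (red) and the library labelled Flox (blue), with exact 95% binomial intervals as bars. The endothelial-like bars stand highest, at 59.3% and 46.6% for at least 1 member and 23.3% and 11.1% for at least 2.

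The other immediate early genes, a list of 46 chosen with earlier results known, were counted in the same way. In adipocyte-like nuclei 6 of 36 measured were 1.5-fold higher and 2 lower (median log2 ratio 0.02), in endothelial-like nuclei 5 and 1 of 30 (0.16), in fibroblast/progenitor-like nuclei 6 and 0 of 32 (0.29) and in macrophage/monocyte-like nuclei 2 and 4 of 24 (0.19). Over all genes 2.06%, 2.88%, 2.92% and 3.97% were that much higher in these classes, in the same order, and 8.14%, 10.4%, 3.78% and 6.26% lower. Rhob, a small GTPase gene of rapid induction, was higher in all 4, at 276 and 133 CPM in endothelial-like, 69.1 and 32.2 in adipocyte-like, 54.4 and 28.5 in fibroblast/progenitor-like and 62.7 and 37.7 in macrophage/monocyte-like nuclei. The adipogenic factor gene Cebpb stood at 138 CPM in adipocyte-like nuclei labelled KO and 57.0 CPM in those labelled Flox, and at 63.3 and 30.6 CPM in fibroblast/progenitor-like nuclei. Nr4a1, an orphan nuclear receptor gene, was higher in adipocyte-like nuclei (32.5 and 19.5 CPM) and lower in macrophage/monocyte-like nuclei (12.5 and 43.4 CPM, from 14 and 54 UMIs), where the growth brake Btg2 (23.3 and 50.6 CPM) was also lower and Klf4 (101 and 55.4 CPM) higher. In endothelial-like nuclei Csrnp1, an AXIN1 responsive gene, had 41 and 12 UMIs (22.3 and 4.85 CPM) and the kinase gene Sgk1 stood at 347 and 161 CPM. Tiparp was the 1 lower there (37.6 and 57 CPM). The 2 lower in adipocyte-like nuclei were Ier3 (3.84 and 5.99 CPM) and Maff (2.4 and 3.66 CPM). Fosl2 was lower in macrophage/monocyte-like nuclei (16.1 and 28.1 CPM) and Jund higher in fibroblast/progenitor-like nuclei (48.6 and 23.9 CPM).

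Among glucocorticoid targets 2 of 8 were higher in fibroblast/progenitor-like nuclei, Tsc22d3 (251 and 154 CPM) and Per1 (105 and 67.9 CPM), against 0 of 8 in adipocyte-like and 0 of 7 in macrophage/monocyte-like nuclei. T/NK-like nuclei had 3 of 4 higher, Fkbp5 (939 and 443 CPM), Zbtb16 (735 and 418 CPM) and Tsc22d3 (286 and 164 CPM), and pericyte/smooth muscle-like nuclei had 1 of 6 higher, Per1 (164 and 94.3 CPM), and 1 lower, Mt1 (70 and 111 CPM). In endothelial-like nuclei 1 of 8 was higher, Sgk1, and 2 lower, the metallothionein genes Mt1 (70.8 and 192 CPM) and Mt2 (14.7 and 39.2 CPM). The median log2 ratio of these targets was 0.14 in adipocyte-like, 0.43 in fibroblast/progenitor-like, 0.25 in endothelial-like and 0.43 in macrophage/monocyte-like nuclei. It was 0.34 in pericyte/smooth muscle-like and 0.80 in T/NK-like nuclei, while medians of all genes ran from -0.06 to -0.02. Above 0 were 7 of 8, 7 of 8, 6 of 8, 5 of 7, 4 of 6 and 3 of 4 targets, in the same order. Of 6 phosphatase genes of the Dusp family measured in endothelial-like nuclei Dusp6 was higher (21.2 and 13.3 CPM) and Dusp4 lower (6.54 and 17.0 CPM). Of 6 in adipocyte-like nuclei 0 were either, and of 4 in macrophage/monocyte-like nuclei 1 was higher, Dusp6 (56.4 and 36.1 CPM). Among SRF and its ternary complex partners 0 of 6 were higher and 1 lower in adipocyte-like nuclei, Elk3 (4.62 and 7.42 CPM), and 0 of 4 were either in each of the fibroblast/progenitor-like, endothelial-like and macrophage/monocyte-like classes. Inducible heat shock genes had 0 of 11 higher and 2 lower in adipocyte-like nuclei. Of these, Hspa1b had 28 UMIs in 28 nuclei labelled KO and 451 UMIs in 30 nuclei labelled Flox, of which 326 lay in 1 nucleus, and its near copy Hspa1a had 17 UMIs in 16 nuclei and 113 UMIs in 13 nuclei, of which 72 lay in 1. Heat shock genes in macrophage/monocyte-like nuclei had 0 of 6 higher and 2 lower, Hspe1 (21.5 and 39.3 CPM) and Hspd1 (42.1 and 63.4 CPM). In pericyte/smooth muscle-like nuclei 1 of 4 was higher, Hspa8 (159 and 81.3 CPM), and in T/NK-like nuclei 1 of 3, Hsp90ab1 (207 and 135 CPM). In fibroblast/progenitor-like and endothelial-like nuclei 0 of 7 and 0 of 8 were either. Shares of all genes higher and lower were 2.06% and 8.14% in adipocyte-like and 2.92% and 3.78% in fibroblast/progenitor-like nuclei. They were 2.88% and 10.4% in endothelial-like and 3.97% and 6.26% in macrophage/monocyte-like nuclei. They were 5.08% and 7.55% in pericyte/smooth muscle-like and 8.46% and 7.82% in T/NK-like nuclei. Short lists with 0 or 1 counted are not set apart from these shares.

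Markers of other cell types were read beside these counts. Skeletal muscle markers, summed over 12 genes, were at 90.1 CPM in adipocyte-like nuclei labelled KO and 214 CPM in those labelled Flox, and at 129 and 425 CPM in endothelial-like nuclei. Endothelial markers in endothelial-like nuclei were near even, at 17849 and 16848 CPM. T/NK markers in macrophage/monocyte-like nuclei were at 65.3 and 20.1 CPM, with Cd3e, Cd3d and Cd3g at 0 in the nuclei labelled KO. All 6 mast cell markers in fibroblast/progenitor-like nuclei were higher in the library labelled KO, at a sum of 42.8 and 11.5 CPM, and in endothelial-like nuclei the 6 neutrophil markers summed to 4.36 and 28.7 CPM. The part of any of these in the ratios was not tested.

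In the smaller classes, which were not compared, skeletal muscle-like nuclei (72 labelled KO, 295 labelled Flox) held 9 and 62 UMIs of Jun (50.9 and 88.7 CPM) and 15 and 46 of Dusp1 (84.8 and 65.8 CPM). Of 13 Ccn1 UMIs in those labelled KO, 11 lay in 1 nucleus. A cluster with no class name, led by Vwf, Selp and Ccl21a (32 and 51 nuclei), held 37 UMIs of Klf2 labelled KO, 21 of them in 1 nucleus, and 22 labelled Flox.

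The genes whose level over the 12 class and library sums was most like that of the summed members were Vamp3 (Pearson r = 0.930), Lamtor5 (0.930), Fkbp1a (0.925), Bst2 (0.924) and Myl12b (0.904), among 9504 genes ranked. The 12 points share 2 libraries and 6 classes, so these values describe the ranking and carry no test. Genes with fewer than 500 UMIs and the genes of the lists counted above, such as Rhob and Sgk1, were left out of it. Mitochondrial, ribosomal protein and haemoglobin genes, genes on the sex chromosomes and symbols of the Gm and Rik forms were left out too. Where any of those would rank was not tested.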

How the data were processed

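Nuclei of brown adipose tissue were profiled with a droplet 3′ method in 1 library labelled KO and 1 labelled Flox. The deposited values are UMI counts of each gene in each barcode. Per the file headers they come from Cell Ranger 5.0.0; the submitters' processing notes name build mm10. Intron handling, strand use and cell calling settings: not given in the sources used here. Every barcode had at least 500 UMIs.

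Barcodes with fewer than 200 genes or over 10% mitochondrial UMIs were removed (129 labelled KO, 99 labelled Flox). Scrublet scores then took out 1358 and 2085 barcodes, up to 0.8% per 1000 barcodes. Clustering used scanpy 1.11.5 (2000 variable genes without the members and related genes, 30 components, 15 neighbours, Leiden resolution 0.5 with leidenalg 0.10.2) and gave 15 clusters. They were named from 15 marker lists. The naming score and the alternative that classes nuclei by marker scores were revised after cluster names were seen and before member values were examined. The members, lists and markers were chosen with earlier results of these data known.

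Per class, the UMIs of each library were added up and set over their total (CPM). Ratios carry exact binomial intervals, levels exact Poisson ones, shares Clopper-Pearson ones, all at 95%, for counting error only. Shares after thinning to 1000 UMIs leave out nuclei with fewer. A gene was counted at 1.5-fold if it had 50 or more UMIs there. The count and the log2 values in the text add 0.5 UMIs to the gene in each library, and the printed ratios do not. All 10 members are named, and the 5 genes most alike among those ranked (log2 of CPM plus 1). From the 9 wider lists up to 3 counted genes each way in a class are named, a selection and not all that were counted. No replicate exists, so no test of genotype was made. On simulated counts the 1.5-fold rule counted 96 of 98 genes set 2-fold apart and 93 of 12036 unchanged genes in adipocyte-like nuclei, and 96 of 99 and 212 of 8284 in endothelial-like nuclei. These counts were drawn with Poisson error only, without variation between libraries or bunching of UMIs in nuclei. They therefore do not measure how often 1 library per genotype misleads. Positions are from GENCODE on GRCm38.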

Additional observations from a re-analysis of the deposited data

Results flagged for a closer look

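Dusp1 went different ways between classes. Its ratio of the library labelled KO over the library labelled Flox was 0.577 in adipocyte-like nuclei, against 1.4 in fibroblast/progenitor-like, 1.51 in endothelial-like and 3.16 in macrophage/monocyte-like nuclei. With 1 library per genotype the difference between classes was not tested.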

How the results depend on the processing

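No paired analysis was possible because each genotype has 1 library. The counts of members at 1.5-fold and the single ratios were recomputed under 12 alternatives fixed at the outset and 1 chosen after seeing the data (adipocyte-like nuclei without cluster 2). Counts were recomputed in adipocyte-like, endothelial-like and fibroblast/progenitor-like nuclei only. Those of macrophage/monocyte-like and pericyte/smooth muscle-like nuclei were not, though their single ratios were. Of the recomputed counts 64 stayed within 1.5 times the main value and 10 did not, and none of the single ratios that were counted changed sign. The 1 lower member in endothelial-like nuclei, Junb, became 0 with doublets kept, at Leiden resolution 0.3, with classes from marker scores, with mean CPM over nuclei and after thinning. After thinning to 1000 UMIs 4 of 6 members were higher in endothelial-like nuclei (7 of 9 in the main count) and 1 of 8 in adipocyte-like nuclei (3 of 10). With classes from marker scores 2 were lower in adipocyte-like nuclei (1 in the main count) and 7 of 9 higher in fibroblast/progenitor-like nuclei (4). With at least 20 UMIs in the class 1 member was lower in fibroblast/progenitor-like nuclei (0). Part of these moves lies in the UMIs needed for a count. After thinning 6 members reached 50 UMIs in endothelial-like nuclei (9 in the main count) and 8 in adipocyte-like nuclei (10). UMIs of Junb then lay in 9 endothelial-like nuclei labelled KO and 20 labelled Flox. Those of Fos lay in 18 and 6 adipocyte-like nuclei and those of Egr1 in 17 and 11. The member lower in fibroblast/progenitor-like nuclei with at least 20 UMIs was Fos, at 12 and 27 UMIs (log2 ratio -0.79). The cause of the other moves was not tested. The adipocyte-like class itself changed: it held 8211 nuclei labelled KO and 8834 labelled Flox in the main clustering, 4555 and 8072 with members allowed among the clustering genes, and 4490 and 6134 under the stricter barcode filter, since a large cluster then stayed unnamed. With doublets kept it held 7316 and 9570, and the erythroid-like class held 1599 and 176 nuclei, against 46 and 118 in the main clustering. The log2 ratio of Ccn1 in adipocyte-like nuclei ran from 1.10 to 1.34, of Ddit4 in endothelial-like nuclei from 1.02 to 1.22 and of Dusp1 in adipocyte-like nuclei from -0.88 to -0.61. Counted members that fell below the 1.5-fold line in at least 1 alternative were, beside Junb (-0.78 to -0.30), Jun (0.24 to 0.81), Dusp1 (0.37 to 0.74) and Nfkbia (0.55 to 0.82) in endothelial-like nuclei, Nfkbia in fibroblast/progenitor-like (0.56 to 0.91) and macrophage/monocyte-like nuclei (0.48 to 0.90) and Fos in adipocyte-like nuclei (0.50 to 1.77). The log2 ratio of Ddit4 in adipocyte-like nuclei, short of the 1.5-fold line, was -0.06 after thinning, against 0.41. TMM scaling moved the median of all genes by 0.08 at most. Low counts limit Fos, Egr1 and Ier2 outside the larger classes.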
